A study of Mus musculus with 4 samples.

Results

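The genes described here are 9 transcriptional targets of p53 that act in cell death: Bax, Bbc3, Pmaip1, Fas, Tnfrsf10b, Perp, Aen, Eda2r and Pidd1. They were chosen by symbol, through the array platform's annotation, and 8 of the 9 had a row that the annotation pairs with a single symbol, out of 22180 genes read the same way. Bax has no such row, so its expression is not analysed here. Each of the 8 had 1 row, and each lay above the array median on all 4 arrays.

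The arrays measured total RNA from whole pancreas of mice aged 8 weeks, on day 5 of a course of cerulein. Cerulein is a peptide analog of cholecystokinin. It overdrives the secretion of acinar cells and causes acute pancreatitis. The dose was 100 µg/kg, injected into the peritoneum 6 times daily every other day. One group was wild type (n = 2) and the other was null for Ifrd1, a transcriptional co-regulator (n = 2). Every mouse had cerulein, so each comparison is between genotypes within injured tissue, and uninjured pancreas is not analysed here. Sex-linked genes, given below, split the same groups, so each comparison is also between sexes as read from these genes. The labels call the samples biological replicates; the sources used here give no strain, no sex and no account of how the null allele was made. A p-value thus rests on the spread among these 4 samples only, which limma moderates for each gene with the spread of all genes.

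The protein p53 is activated by DNA damage and other stress and switches on genes for cell cycle arrest, for repair and for death. Its death targets work by different routes. The products of Bax, Bbc3 (PUMA) and Pmaip1 (NOXA) act at the mitochondrion, where Bcl-2 family proteins decide whether cytochrome c is released. Fas, Tnfrsf10b (the receptor for TRAIL) and Eda2r are receptors of the tumour necrosis factor receptor family, Pidd1 is a scaffold that activates caspase-2, Perp is a membrane protein of desmosomes and Aen is a nuclease. In pancreatitis, loss of acinar cells by death is followed by repair and proliferation, the phase that the study set out to sample.

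RefSeq promoter sequence (GRCm38.p6) was at hand for 5 of the 8 measured genes, in 8 windows of 250 bases upstream of a transcript start. The windows were searched for exact matches to the p53 half-site consensus, a decamer that reads the same on both strands. The match was present in 7.13% of all 32851 windows. It was in 1 window of the measured genes, at the more downstream of the Aen starts, and in none of the windows of Eda2r, Fas, Bbc3 and Pidd1. The stretch of Aen around the match and the windows of both receptors with a sequence are shown, on the strand of the gene and from 5′ to 3′. In Aen (chr7:78895927-78895956, plus strand) the capitals mark the decamer, which begins 121 bases before the start. In Eda2r (chrX:97377210-97377459, minus strand) they mark TATAAA, the core of a TATA box, which begins 58 bases before the start and is found on either strand in 12.4% of all windows. The Fas window (chr19:34290409-34290658, plus strand) holds neither.
Aen: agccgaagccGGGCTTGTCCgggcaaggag
Eda2r: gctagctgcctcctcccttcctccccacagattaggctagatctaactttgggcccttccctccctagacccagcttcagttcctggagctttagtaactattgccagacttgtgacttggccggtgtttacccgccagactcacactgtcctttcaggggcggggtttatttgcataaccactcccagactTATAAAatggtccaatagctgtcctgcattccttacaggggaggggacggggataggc
Fas: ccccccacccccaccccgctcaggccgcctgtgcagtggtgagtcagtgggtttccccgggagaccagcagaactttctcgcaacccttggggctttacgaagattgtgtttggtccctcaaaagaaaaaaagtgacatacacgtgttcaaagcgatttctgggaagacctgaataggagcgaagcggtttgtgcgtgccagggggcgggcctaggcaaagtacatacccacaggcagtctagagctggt
The windows also differed in base composition. GC content was 53.2% for Eda2r and 56.4% for Fas, against a median of 52.4% over all windows, while the 3 Bbc3 windows ran from 72.4% to 81.6%. A match describes letters in this window and is not a measured binding site.

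The samples were checked first. Ifrd1 had log2 levels of 9.04 and 9.07 in the wild-type pair, and the null pair had 6.99 and 7.09, a difference of -2.02 ± 0.11 (SE; limma adjusted p = 0.138). The position of its probes relative to the deletion is not known here. The acinar gene Cpa1 lay between 13.37 and 13.65 on all arrays. The null arrays carried Xist (10.15 and 9.58, against 2.56 and 3.54 in wild type) and had low signal for the Y-linked Uty (2.25 and 2.36, against 6.41 and 6.40), so genotype and sex as read from these genes cannot be told apart. Wild type 1 was above wild type 2 in 12 of 12 intestinal epithelium markers, with a summed log2 level of 66.3 against 50.6 to 51.6 on the other arrays, and 2 of the 12 lay above the array median on every array.

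All 8 measured death targets had a lower mean in the Ifrd1 null than in wild type, by 0.09 to 0.54 on the log2 scale, and none passed the test over all genes. Their median difference was -0.19, against -0.01 over all genes and -0.06 over genes above the median level. A lower mean was common: 52.7% of all genes had one, and 63.1% of genes above the median level, where these 8 lie. In 4 of the 8 (Bbc3, Pmaip1, Eda2r and Pidd1) both null arrays lay below both wild-type arrays, a pattern seen in 19.7% of all genes and 26.6% of those above the median level. The number past an adjusted p of 0.05 was 0 in limma (adjusted p from 0.721 to 0.865), where 0.00451% of genes passed, namely the Y-linked Uty alone. At unadjusted p under 0.05 there was 1, Eda2r, where 3.63% of all genes, and 4.97% of those above the median level, were lower at that p. With each array left out in turn the median stayed below 0 but ran from -0.27 without wild type 1 to -0.10 without Ifrd1 null 2, and it was -0.13 for the 7 genes left without the X-linked Eda2r. All 8 stayed lower under the 3 other scalings tried, with medians of -0.14 to -0.24. Median centring gave the -0.24, and with it the median of all genes was -0.06 and 62.3% of them were lower.

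**Figure D1:**
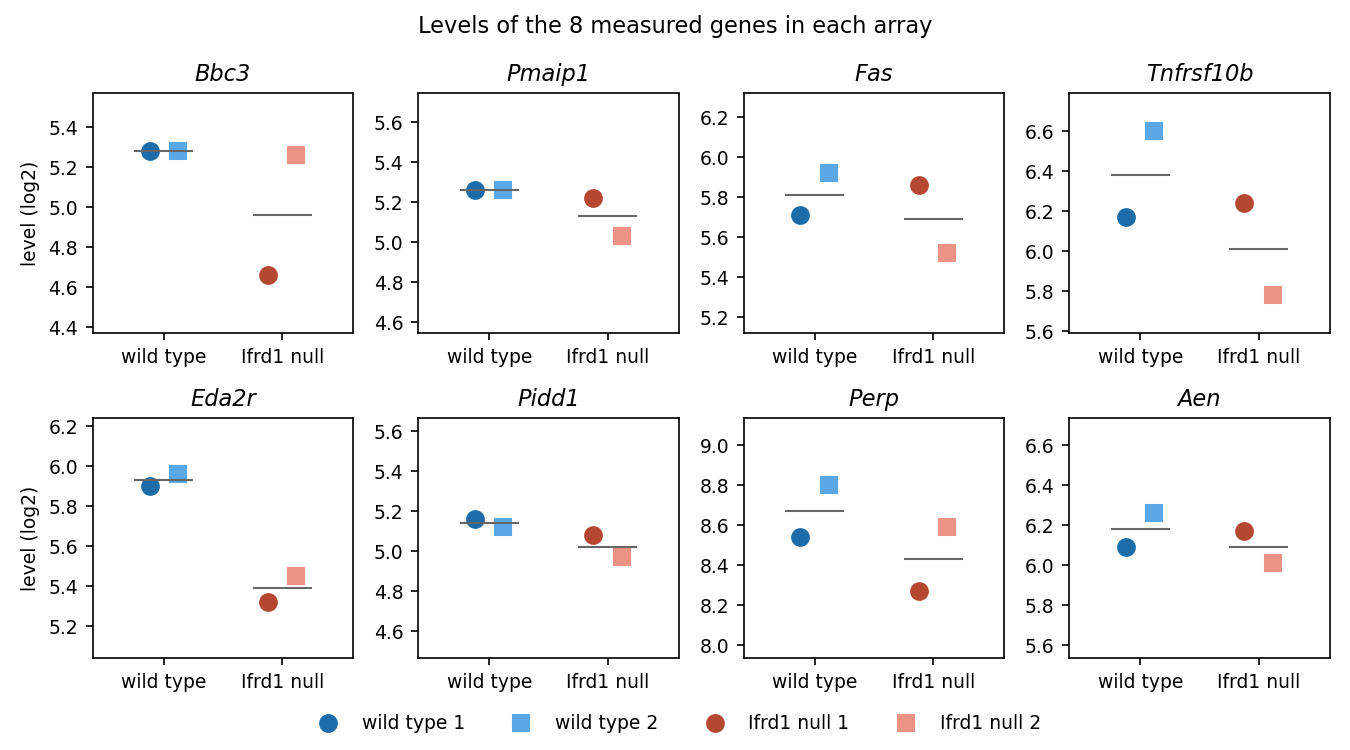
Level (log2, y axis) of each of the 8 measured genes in each array, with the group mean as a grey line (n = 2 per group); every panel spans the same range. The Eda2r groups lie apart by more than the spread within them, with wild type at 5.90 and 5.96 and the null at 5.32 and 5.45.

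Of the mitochondrial arm, Bbc3 encodes a BH3-only protein that frees Bax and Bak from their inhibitors. Wild type gave 5.28 on each array, and the null gave 4.66 and 5.26. Ifrd1 null 2 was thus at the wild-type level and Ifrd1 null 1 alone was clearly lower. The difference was -0.32 ± 0.22 (SE), with a 95% interval of -0.92 to 0.28 (limma adjusted p = 0.777), and it was -0.02 without Ifrd1 null 1 and -0.62 without Ifrd1 null 2.

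Pmaip1 encodes another BH3-only protein, which binds Mcl-1. Wild type gave 5.26 on each array, and the null gave 5.22 and 5.03. The groups did not overlap, but the difference was small, -0.13 ± 0.12 (SE), with an interval of -0.45 to 0.18 (limma adjusted p = 0.796). Here Ifrd1 null 2 was the lower array, the reverse of Bbc3, and without it the difference was -0.04; without Ifrd1 null 1 it was -0.23.

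Among the death receptors, Eda2r had the largest difference of the 8. Eda2r binds ectodysplasin A2, a product of Eda, and signals to NF-kB and JNK. Its level was 5.90 and 5.96 in wild type and 5.32 and 5.45 in the null. Both null arrays were low and the groups lay well apart. The difference was -0.54 ± 0.11 (SE), a 1.46-fold lower level, with an interval of -0.84 to -0.25. Its unadjusted p was 0.00611 and its limma adjusted p 0.721. Unadjusted p stayed between 0.00441 and 0.0421 in the 11 alternatives that kept the gene. Eda2r lies on the X chromosome, whose 899 measured genes had a median difference of 0.02, with 17.9% showing both null arrays below both wild-type arrays. The part of sex in its difference was not tested.

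Tnfrsf10b, the death receptor for TRAIL, had the next largest difference, with wide scatter. It stood at 6.17 and 6.60 in wild type and at 6.24 and 5.78 in the null. The groups overlapped, since Ifrd1 null 1 was above wild type 1. The difference was -0.38 ± 0.23 (SE), with an interval of -1.0 to 0.25 (limma adjusted p = 0.762). It was -0.16 without wild type 2, -0.15 without Ifrd1 null 2, -0.61 without Ifrd1 null 1 and -0.59 without wild type 1, so its size depended on single arrays.

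Fas, the receptor for Fas ligand, was at 5.71 and 5.92 in wild type and at 5.86 and 5.52 in the null. The groups overlapped. The difference was -0.12 ± 0.17 (SE; interval -0.57 to 0.32; limma adjusted p = 0.855), and it was -0.29 without Ifrd1 null 1, -0.22 without wild type 1 and -0.02 without wild type 2, and turned to 0.05 without Ifrd1 null 2.

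Pidd1, whose product joins Cradd and caspase-2 in the PIDDosome, was at 5.16 and 5.12 in wild type and at 5.08 and 4.97 in the null. The groups did not overlap, by a margin of a few hundredths. The difference was -0.12 ± 0.11 (SE; interval -0.40 to 0.17; limma adjusted p = 0.807), with -0.06 without Ifrd1 null 2.

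Perp and Aen act outside both arms. Perp, needed for desmosomes in stratified epithelia and also a death effector, was at 8.54 and 8.80 in wild type and at 8.27 and 8.59 in the null. Ifrd1 null 2 was above wild type 1, so the groups overlapped. The difference was -0.24 ± 0.17 (SE; interval -0.70 to 0.22; limma adjusted p = 0.780), with -0.08 without Ifrd1 null 1, -0.10 without wild type 2 and -0.14 with cyclic loess, but -0.40 without Ifrd1 null 2 and -0.37 without wild type 1. Aen, an exonuclease that takes part in DNA fragmentation, was at 6.09 and 6.26 in wild type and at 6.17 and 6.01 in the null. The groups overlapped and the difference was the smallest of the 8, -0.09 ± 0.13 (SE; interval -0.43 to 0.25; limma adjusted p = 0.865), and Aen is the measured gene with a half-site match in its window. It was -0.17 without Ifrd1 null 1 or wild type 1, -0.01 without Ifrd1 null 2 and -0.03 with cyclic loess.

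**Figure D2:**
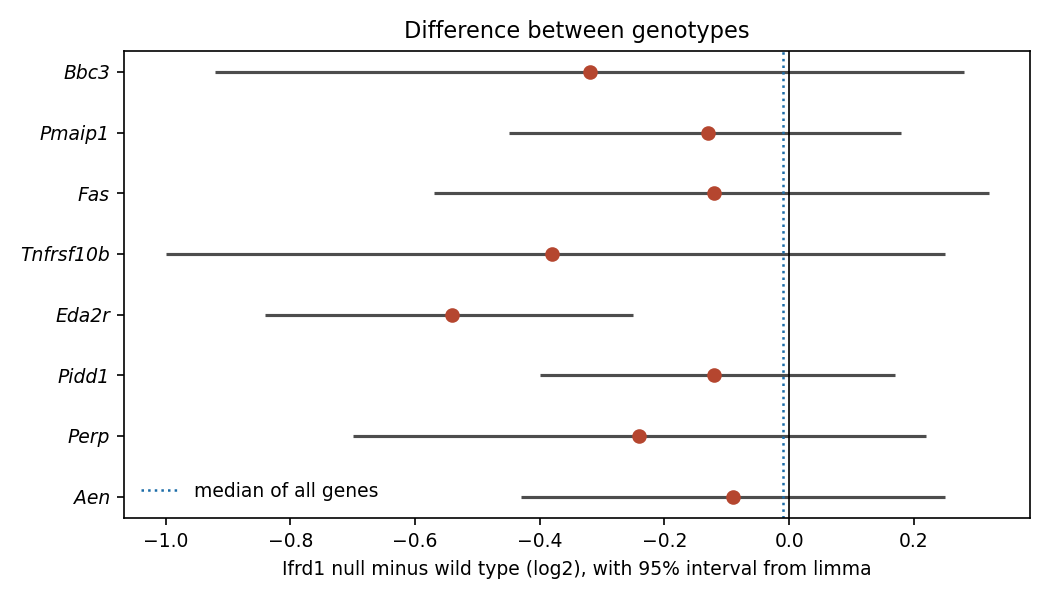
Ifrd1 null minus wild type (log2, x axis) for each gene, as the limma estimate (point) and its 95% interval (line; n = 2 per group), with the median of all genes dotted. The interval of Eda2r, -0.84 to -0.25, lies below 0, and the other 7 cross it.

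Which null array was the lower one differed between genes. Ifrd1 null 2 was the lower null array in 5 of 8 (Pmaip1, Fas, Tnfrsf10b, Pidd1 and Aen), and Ifrd1 null 1 in Bbc3, Perp and Eda2r. Against the wild-type mean, 7 of 8 were lower in Ifrd1 null 1 and 8 of 8 in Ifrd1 null 2, with medians of -0.10 and -0.20. Wild type 1 was the lower wild-type array in 6 of 8. Of the 13124 genes above the median level, 6516 were lower in Ifrd1 null 2 than in Ifrd1 null 1. Wild type 1 was the lower wild-type array in 7175 of them. Against the wild-type mean, 7877 of the 13124 were lower in Ifrd1 null 1 and 7815 in Ifrd1 null 2.

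**Figure D3:**
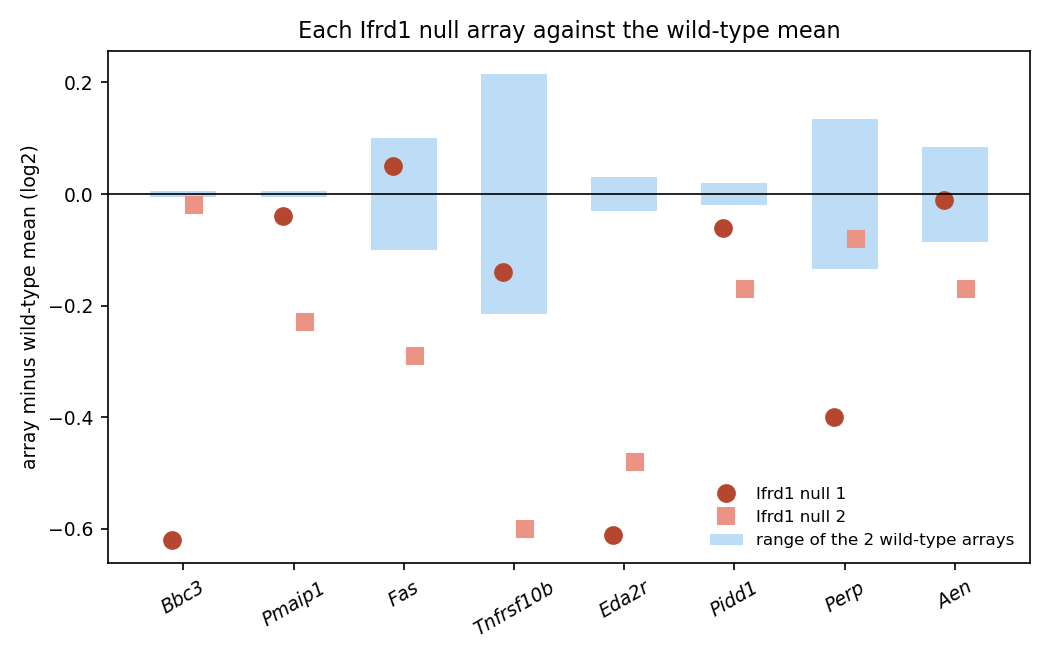
Each Ifrd1 null array minus the wild-type mean (log2, y axis) for the 8 genes, with the range of both wild-type arrays as a blue bar. Both null arrays lie below the bar for Bbc3, Pmaip1, Eda2r and Pidd1, and Ifrd1 null 1 lies within it for Fas, Tnfrsf10b and Aen, as does Ifrd1 null 2 for Perp.

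Cell type markers differed between the same arrays. In whole tissue, fewer cells of a type and less RNA per cell cannot be told apart. All 11 measured macrophage markers and all 12 stellate cell and fibroblast markers were lower in Ifrd1 null 2 than in Ifrd1 null 1, as were 9 of 9 adipocyte markers and 9 of 11 B and plasma cell markers. Acinar markers were higher there in 8 of 9, by over 0.05, and Ctrb1 was at 13.92 in both. The summed log2 level of the macrophage markers was 93.0 and 94.4 in wild type and 95.1 and 89.0 in the null, with all 11 above the array median on every array. That of the stellate and fibroblast markers was 109.7 and 108.0 in wild type and 110.2 and 103.3 in the null, with all 12 above the median, and that of the acinar markers was 99.5 and 99.3 against 97.3 and 101.1, with all 9 above it. B and plasma cell markers summed to 64.1 and 63.6 in wild type and to 70.4 and 59.3 in the null, with 8 of 11 above the median on every array, and adipocyte markers to 50.4 and 53.6, then 56.7 and 48.1, with 8 of 9 above it. Between the null arrays these lists moved by more than the macrophage and fibroblast lists, with Jchain, of plasma cells, at 8.19 and 5.23. Tnfrsf10b, Fas, Aen, Pmaip1 and Pidd1 were lower in Ifrd1 null 2, as were these 4 lists. The part of cell mix in these values was not tested.

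Of 10 measured duct and epithelial markers, 8 had a lower mean in the null (80.0%, against 63.1% of genes above the median level, where all 10 lie), and 5 of 10 had both null arrays below both wild-type arrays (against 26.6%). Their median difference was -0.25, or -0.17 with cyclic loess and -0.41 without Ifrd1 null 1, and 9 of 10 were below the wild-type mean in Ifrd1 null 1 and 7 of 10 in Ifrd1 null 2. Krt19, a duct keratin, had the smallest p of the list, with 8.11 and 8.05 in wild type and 7.59 and 7.39 in the null. Others went the other way in 1 null array: Sox9, a duct transcription factor, was at 8.62 in Ifrd1 null 2 (8.17 and 8.10 in wild type), Tff2 at 10.86 there (9.80 and 9.82), and the keratin Krt7 at 6.42 in Ifrd1 null 1 (5.95 and 6.34). The summed log2 level of the 10 was 83.9 and 84.2 in wild type, with 81.4 and 82.2 in the null, and all 10 lay above the array median on every array. Eda2r was lower in both null arrays, and Perp is an epithelial gene. The part of epithelial content in either was not tested.

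The other p53 targets, listed here under arrest, feedback and repair, were read beside the death targets. Of 26 measured, 23 had a lower mean in the null (88.5%, against 63.1% of genes above the median level) and 3 a higher one. Both null arrays lay below both wild-type arrays in 14 of the 26 (53.8%, against 19.7% of all genes and 26.6% of those above the median level), and the median was -0.24 (-0.15 without wild type 2, -0.16 with cyclic loess). The limma test gave 9 at unadjusted p under 0.05, all lower, where 3.63% of all genes and 4.97% of those above the median level were, and 0 after adjustment. Without wild type 2 there were 2 of the 26, without wild type 1 or Ifrd1 null 1 there were 4. Psrc1, a microtubule regulator, had the smallest p of the list, at 6.16 and 5.92 in wild type and 5.39 and 5.11 in the null (-0.79 ± 0.16, SE). Btg2, an antiproliferative gene, stood at 8.18 and 8.34 against 7.71 and 7.69 (-0.56 ± 0.11, SE). Ccng1, which encodes cyclin G1, stood at 10.55 and 10.72 against 10.10 and 10.27 (-0.45 ± 0.13, SE). The list of arrest, feedback and repair targets thus held 9 of 26 at limma unadjusted p under 0.05 and the death targets 1 of 8. Whether these groups differ was not tested.

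Other members of the Bcl-2 family gave values on both sides of wild type. Of 15 measured, 10 had a lower mean (66.7%, against 63.1% of genes above the median level) and 5 a higher one. The median was -0.13 (-0.01 without wild type 2, -0.06 without Ifrd1 null 2, -0.05 with cyclic loess). In 4 of the 15 both null arrays lay below both wild-type arrays (26.7%, against 19.7% of all genes). Among the 12 of them above the median level, 2 did so, where 26.6% of all genes above that level did. At limma unadjusted p under 0.05, 3.63% of all genes and 4.97% of those above the median level were lower. Bmf, a BH3-only gene, was at 5.02 and 4.91 in wild type and 4.62 and 4.61 in the null, a difference of -0.35 ± 0.10 (SE), and was the 1 member of 15 with an unadjusted p under 0.05 (limma adjusted p = 0.721). It no longer was with the replicate block or without either null array (limma unadjusted p from 0.0552 to 0.0602). Hrk, also BH3-only and next by p, was below the array median on every array, so its -0.25 ± 0.11 (SE) is not exact. Bak1, the partner effector of Bax, was at -0.07 ± 0.13, and the survival genes Bcl2 and Mcl1 were at 0.06 ± 0.12 and 0.04 ± 0.14 (log2 difference, SE).

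Caspases and the apoptosome lay near 0, with a median of -0.07 and 13 of 17 lower (76.5%, against 63.1% of genes above the median level). Their median was -0.03 with quantile normalization and cyclic loess, each with 11 of 17 lower, and -0.12 with arrays centred on their medians, with 15 lower. The smallest p was that of Casp2, the caspase that the PIDDosome activates, at 6.60 and 6.62 in wild type and 6.37 and 6.23 in the null (-0.31 ± 0.11, SE; unadjusted p = 0.0429, limma adjusted p = 0.721). Casp2 was the 1 of 17 at limma unadjusted p under 0.05, where 3.63% of all genes were lower at that p. Its limma unadjusted p was 0.0662 to 0.112 with quantile normalization, cyclic loess or the replicate block and without wild type 1, wild type 2 or Ifrd1 null 2. Apaf1, the scaffold of the apoptosome and itself a p53 target, was at 6.03 and 6.01 against 5.91 and 5.46 (-0.33 ± 0.18, SE). Both genes had null arrays below wild type without overlap, as 6 of the 17 did (35.3%, against 26.6% of genes above the median level), and in Apaf1 most of the difference came from Ifrd1 null 2. Casp9, the initiator caspase of the apoptosome, was at 0.07 ± 0.11 and Casp8, that of the death receptors, at -0.08 ± 0.12 (log2 difference, SE).

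Ligands and adaptors of the receptors showed 12 of 17 lower, with a median of -0.07. It was -0.03 with quantile normalization and cyclic loess (10 of 17 lower). With median centring it was -0.12 (13 lower, where 62.3% of all genes were lower). Tnfsf10, which encodes TRAIL, had the largest difference: 6.03 and 5.88 in wild type and 5.14 and 5.51 in the null. Both null arrays were lower, by a mean of -0.63 ± 0.17 (SE; unadjusted p = 0.0168, limma adjusted p = 0.721). Tnfsf10 was the 1 lower gene of 17 at limma unadjusted p under 0.05, where 3.63% of all genes were lower at that p. Its limma unadjusted p was 0.0539 to 0.152 without wild type 1, wild type 2 or Ifrd1 null 1. Its receptor Tnfrsf10b had overlapping groups. Faim2, an inhibitor of Fas signalling, was the 1 higher gene at unadjusted p under 0.05, where 3.27% of all genes were higher at that p: its levels were 4.22 and 4.0 in wild type, with 4.48 and 4.49 in the null (0.38 ± 0.12, SE); its wild type 2 value lay below the array median, so the difference is not exact. Its limma unadjusted p was 0.0523 to 0.116 with median centring, cyclic loess or the replicate block and without wild type 2 or either null array.

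The partners of the other receptors and of Pidd1 differed less. Fasl, the ligand of Fas, was below the array median on every array (2.62 to 3.02), where signal above background is not shown. T and NK cell markers, from cells that make Fas ligand, had higher means in the null in 15 of 15, where 10466 of all 22180 genes did. Their summed log2 levels were 58.4 and 60.8 in wild type and 66.2 and 63.0 in the null. Of the 15, 4 lay above the array median throughout. Among the 13124 genes above the median level 4832 had a higher mean, so a higher mean was more common among dimmer genes. The part of these cells in the Fasl value was not tested. Eda, which encodes the ligand of Eda2r and is also X-linked, was at 5.72 and 5.36 in wild type and 5.38 and 5.59 in the null, with overlapping groups. Fadd, the adaptor of Fas and Tnfrsf10b, was at -0.03 ± 0.11 (log2 difference, SE). Tax1bp1, an adaptor that limits NF-kB signalling, was at -0.15 ± 0.10. Cradd, the adaptor between Pidd1 and caspase-2, gave 6.13 on each wild-type array and 5.90 and 5.98 in the null, -0.19 ± 0.10 (SE; limma adjusted p = 0.757). Over the whole list of partners, 5 of 17 had both null arrays below both wild-type arrays (29.4%, against 26.6% of genes above the median level).

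**Figure D4:**
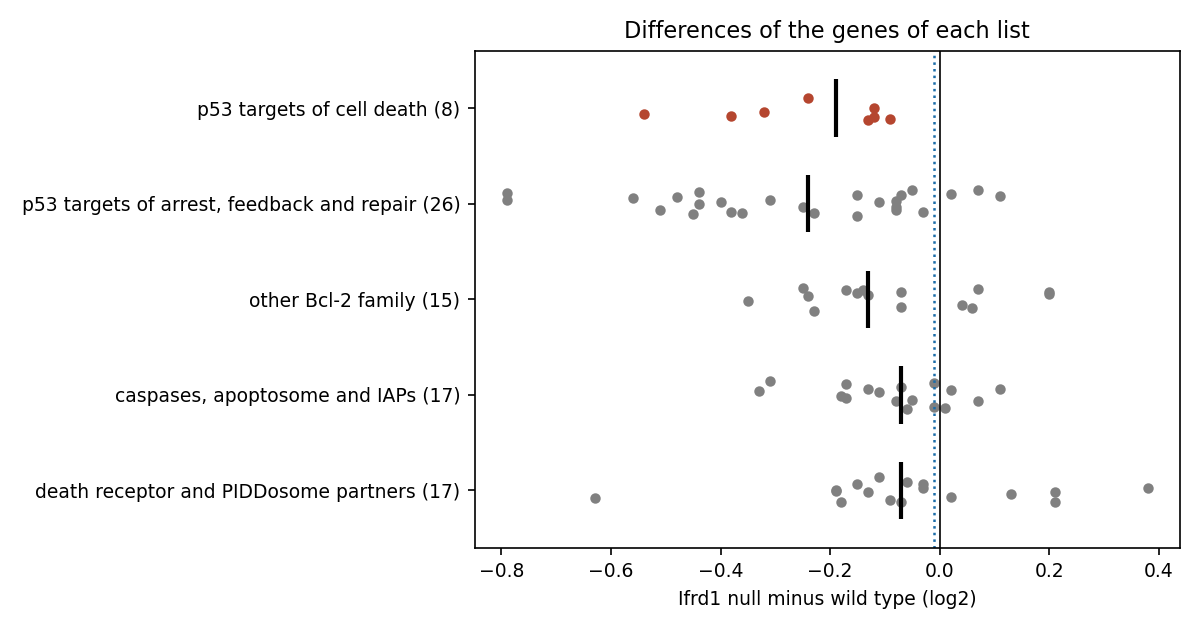
Ifrd1 null minus wild type (log2, x axis) for each measured gene of the 5 lists, with the number measured in brackets; points are genes, black bars are list medians and the dotted line is the median of all genes. The medians run from -0.24 for the p53 targets of arrest, feedback and repair to -0.07 for the caspase and receptor-partner lists, with -0.19 for the death targets.

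The genes whose 4 values most resembled the median pattern of the 8 were Gak, Emc8, Rsrc1, Ano6 and Gphn. They were the 5 nearest of 12330 genes above the array median on every array, at Euclidean distances of 0.0270 to 0.0296 between values centred on each gene's mean. Their differences were -0.15 to -0.17 (log2). Over 4 arrays and that many candidates, a close match says little.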

How the data were processed

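The authors deposited one value per array and transcript cluster from biotin-labelled total RNA on Affymetrix arrays, per the labels' protocols. The authors deposited values with near-equal array medians (4.08 to 4.15), which were read here as log2 levels; log base, background correction, summary, normalization and genome build are not given in the sources used here. Of 41345 rows, 23521 had 1 symbol, 1814 several and 16010 none here; the row with the highest mean stood for each of 22180 genes. Groups were compared with limma 3.58.1 (lmFit, eBayes) in R 4.3.3 over all genes, as Ifrd1 null minus wild type, two-sided, with Benjamini-Hochberg adjustment at 0.05. No dim row was filtered. The fit was tested on simulated data. An exact permutation of 2 against 2 arrays cannot go below p = 0.333, so none was run. The number of arrays limits the precision. Means are over 2 arrays, and errors are SE of a difference.

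The 9 genes and all lists were chosen with earlier results of these data known. Named genes are these, Ifrd1, sex-linked genes, listed partners, the brightest and the 2 members of smallest p of each pathway list, and the 5 nearest in pattern; markers and other named list members were picked after their values were seen. The alternatives were other normalizations, a replicate block, a filter, another row rule, genes off X and Y, trend and robust eBayes, and each array left out.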

Additional observations from a re-analysis of the deposited data

How the results depend on the processing

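Of 95 differences of the 8 genes recomputed over 12 alternatives, 94 were below 0. The exception was Fas, which ran from -0.29 to 0.05 with single arrays left out. The number of the 8 past adjusted p 0.05 was 0 in each of the 12 (limma adjusted p 0.473 to 1.0). Over all genes that number was 1 in the main fit, the Y-linked Uty (limma adjusted p = 0.0206). It was 4 with quantile normalization, cyclic loess or the replicate block, and 5 with median centring or trend and robust eBayes. With X and Y genes left out it was 0.

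Same-numbered arrays did not deviate together (correlation -0.0352 over genes), so the numbers were not taken to pair mice. With the replicate number as a block the median of the 8 genes was -0.19 and Eda2r had an unadjusted p of 0.0122. With X and Y genes left out, Eda2r is absent and 0 of 7 had an unadjusted p under 0.05 in limma; with arrays left out that number was 1 or 2.

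Ifrd1 passed with arrays centred on their medians (-2.07, limma adjusted p = 0.0313) and with trend and robust eBayes (-2.02, limma adjusted p = 0.0419). Medians of the arrest, Bcl-2, caspase and receptor-partner lists were -0.18, -0.06, -0.03 and -0.03 with quantile normalization and -0.16, -0.05, -0.03 and -0.03 with cyclic loess. With median centring they were -0.29 for arrest, -0.12 for caspases and -0.12 for partners, and the median of all genes was -0.06. The partner median was -0.08 among genes above the median level and -0.08 without X and Y genes. With arrays left out in turn, the median ran from -0.27 to -0.10 for the 8 genes, from -0.28 to -0.15 for arrest, from -0.16 to -0.01 for Bcl-2, from -0.12 to -0.05 for caspases and from -0.10 to -0.04 for partners. The count of the 8 genes with groups that do not overlap ran from 4 to 8 then, since fewer arrays overlap less often. A lone array was assumed to vary like the other group. The causes of these shifts were not tested.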

Other observations

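The RefSeq windows of the p53 targets of arrest, feedback and repair were searched for the same half-site decamer. Of 22 with a window, 9 had an exact match within 250 bases of a start: Ccng1, Cdkn1a, Ckap2, Ei24, Mdm2, Polk, Ppm1d, Rps27l and Sesn1, with 2 matches each in Cdkn1a and Rps27l. Among the death targets the match was found in Aen and Bax, of 6 with a window (Bax by its sequence alone). Over all genes with a window, 8.2% had a match in at least 1 of their windows. The median genotype difference was -0.23 for the 9 arrest, feedback and repair targets with a match and -0.31 for the 13 without (log2, Ifrd1 null minus wild type). No test was run on these medians or on the shares.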
